A study of Mus musculus with 16 samples.

Results

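T and B lymphocytes were picked out of single-cell RNA libraries of the mouse thoracic aorta by their own receptor transcripts. A cell was taken when it held at least 2 unique molecular identifiers (UMIs, 1 per captured RNA molecule) summed over Cd3d, Cd3e, Cd3g, Cd79a, Cd79b and Ms4a1, and fewer than 5 UMIs each of Dcn, of Myh11 and of C1qa, C1qb and C1qc together. It was called a T cell when the UMIs of the 3 Cd3 genes outnumbered those of the other 3, and a B cell otherwise. The rule found 191 of 50858 kept cells, 135 T cells in 15 of the 16 libraries and 56 B cells in 11. Since these 6 genes chose the cells, their levels are a description. Within the limits on Dcn, Myh11 and C1q, 24 cells held 1 UMI of the 6 genes and stayed outside, while 8 cells held 2 and were the lowest inside, 7 T cells and 1 B cell. The limits left out 65 of 256 cells that otherwise passed, 44 of them for C1q, 19 for Dcn and 5 for Myh11. No member held 2 or more UMIs of both kinds, and 12 members held some of both.

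Lymphocytes patrol blood, lymph and tissues. T cells read antigen with a receptor built from an alpha and a beta chain or from a gamma and a delta chain, carried to the surface by the CD3 proteins, and gamma-delta T cells are known for settling in barrier and connective tissues. B cells read antigen with a membrane immunoglobulin held by CD79A and CD79B, and after activation may become plasma cells, which secrete antibody of 1 heavy-chain class. In a healthy artery both are scarce and lie mainly in the adventitia.

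The 16 libraries came from 16 male 129S6/SvEv mice, 1 mouse each, and p-values over libraries measure the spread between these mice. Smad3SmKO mice carried floxed Smad3 and the tamoxifen-inducible Myh11-CreER, which is active in smooth muscle and sits on the Y chromosome, and Smad3+/+ mice carried the same Cre with intact Smad3. All were given tamoxifen from 6 weeks of age, and the region from the aortic root to the arch was taken 10 or 18 weeks after deletion. There were 2 Smad3+/+ and 2 Smad3SmKO mice at 10 weeks, and 5 and 7 at 18 weeks. Some mice also carried an EGFP-L10a tracer switched on by the same Cre. At 10 weeks both Smad3+/+ mice had the tracer and neither Smad3SmKO mouse did, so tracer and genotype cannot be told apart there. Every 10-week library was of batch 4 and was digested for 60 min. At 18 weeks the libraries of batches 1, 2 and 3 were digested for 30 min from mice without the tracer, and those of batches 5 and 6 for 60 min from mice with it. Cells were sorted as live and nucleated, with no gate for lymphocytes. The Cre is not expected in lymphocytes, so these cells were not targets of the deletion.

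The libraries held 12539539 to 52843031 UMIs and 631 to 6497 kept cells, with a median of 4528 to 21884 UMIs per kept cell. T cells were shallow, with a median of 4436 UMIs, against 8368 in the 35067 kept cells with at least 5 Dcn UMIs, fewer than 5 of Myh11 and of C1q, and none of the 6 genes, called Dcn cells below. The lower limits on genes and UMIs removed 59 cells that met the lymphocyte rule and the upper limits 3. Doublets were treated only by the upper limits.

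Cell barcodes were shared between some libraries, mainly within batch 4 and among batches 5 and 6, and this touched the lymphocytes. Of the deposited barcodes, 5157 occurred in more than 1 library, and 315 of the kept ones did. Pairs of libraries within batch 4, all of the 10-week samples, shared 203 to 463 deposited barcodes, pairs within batches 5 and 6 together shared 11 to 3507, and the other 104 pairs shared 0 to 15. The barcodes of 40 lymphocytes were also deposited for another library. For 6 of them, 2 T and 4 B cells, the other library held more UMIs. Without those 6, 185 lymphocytes remained, 133 T and 52 B cells, a setting added after the data were seen. One barcode was a B cell in all 4 of the 10-week libraries, with 3650, 2685, 3170 and 3220 UMIs, of which 34, 28, 42 and 42 were Igkc and 9, 8, 7 and 9 Ighm. The 6 B cells at 10 weeks therefore came from 3 barcodes, and both B cells of the Smad3SmKO mice at that time were this one. At 18 weeks, the single B cell of Smad3+/+ replicate 4, with 2652 UMIs, had its barcode deposited with 67438 UMIs in Smad3+/+ replicate 5, above the upper limit.

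**Figure D1:**
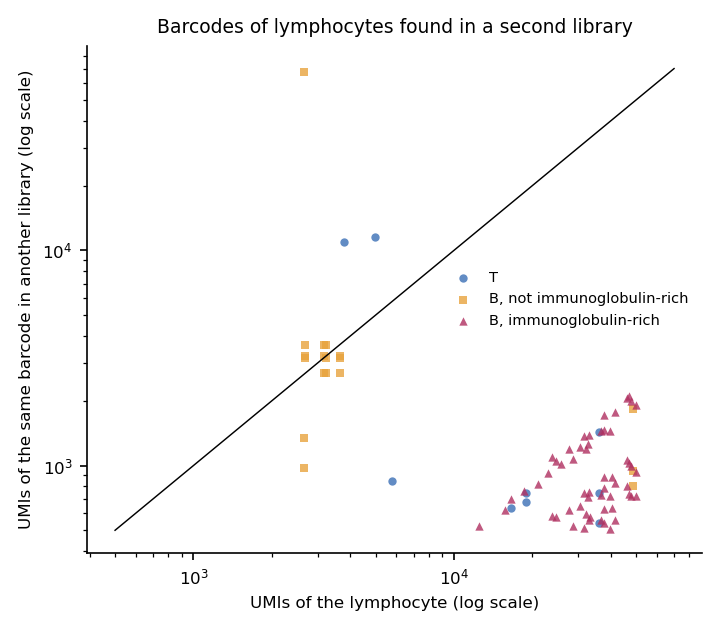
UMIs of each lymphocyte whose barcode was also deposited for a second library (x axis, log scale) against the UMIs of that barcode in the second library (y axis, log scale), 1 point per lymphocyte and second library; the line marks equal counts. The immunoglobulin-rich cells lie far below the line with 508 to 2112 UMIs in the second library, while the 10-week B cell barcode gives the square points around the line and 1 B cell at 2652 UMIs has 67438 in the other library.

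The T class fitted its markers. Of the 17 genes listed for the T cell receptor and its signalling, 14 had a UMI in at least 25% of T cells and 2 did in B cells. Trbc2, a constant region of the beta chain, was found in 124 of 135 T cells, Il7r, the interleukin 7 receptor, in 111, and the kinase gene Lck in 45. Of the 7 genes listed for natural killer and innate lymphoid cells, Ncr1, Eomes and Klra8 were found in 0 T cells, Klrb1c in 1, Il1rl1 and Calca in 6 each and Areg in 13. Of 6 dendritic cell genes 5 were at 0. In Dcn cells Trac was found in 0.305% and Trdc in 0.120%, and Trbc2 in 0.148%, which sets the level of free RNA well under these shares.

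The T cells divided by the constant regions of their receptors, Trac for alpha and Trdc for delta. Trac without Trdc was found in 59 cells of 15 libraries, Trdc without Trac in 39 cells of 14 libraries, both in 6 and neither in 31. Without barcodes held with more UMIs elsewhere, 57 and 39 cells held Trac alone and Trdc alone. The split was chosen after the values were seen. It did not separate the beta chain, since Trbc1 and Trbc2 were also found in cells with Trdc alone, at shares given below. Whether each cell with Trdc alone carried a gamma-delta receptor was not tested. The 4 groups had median depths of 5408, 3868, 3796 and 3005 UMIs, so a cell with neither was often a shallow one, and 27 of the 31 held Trbc1 or Trbc2. In the cells with a single one of them, the median was 8 Trdc UMIs per Trdc cell and 2 Trac UMIs per Trac cell. By library, cells with Trdc alone numbered 3 and 2 in Smad3+/+ and 4 and 4 in Smad3SmKO mice at 10 weeks, 3, 2, 2, 2 and 4 in Smad3+/+ at 18 weeks, and 1, 5, 0, 1, 2, 4 and 0 in Smad3SmKO at 18 weeks. Every library with T cells other than Smad3SmKO replicate 3 at 18 weeks, which had 3 T cells, thus held at least 1 of them.

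**Figure D2:**
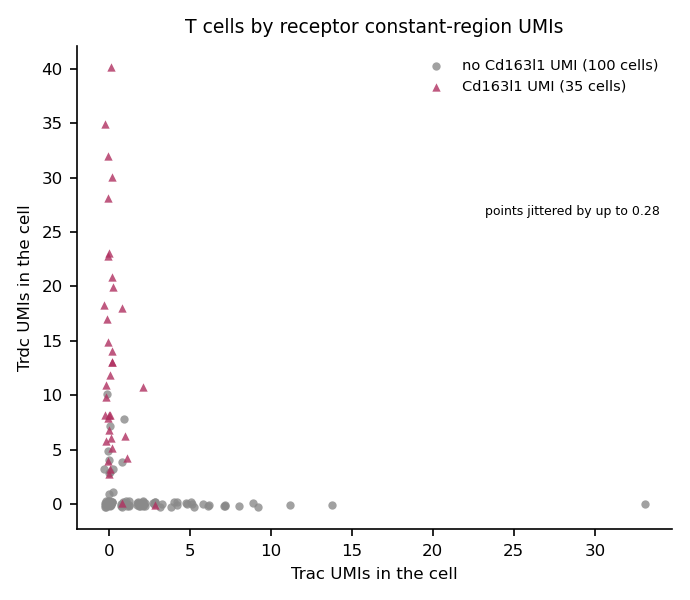
Trac UMIs (x axis) and Trdc UMIs (y axis) of each of the 135 T cells, with triangles for cells holding a Cd163l1 UMI and circles for those without. The points hug the axes, since 6 cells held both, and the triangles run up the Trdc axis: 33 of the 45 cells with a Trdc UMI held Cd163l1.

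The Trdc cells shared a set of genes. Cd163l1, a scavenger receptor gene known from gamma-delta T cells, was found in 29 of the 39 cells with Trdc alone and in 2 of the 59 with Trac alone, at 854 and 9.88 CPM, the UMIs of a gene scaled to a total of 1000000 over the cells of the class. Trdv4, a delta variable segment, was found in 23 and 0 cells, at 354 and 0 CPM, and Tcrg-C1, a gamma constant region, in 33 and 23. Among all 45 cells with a Trdc UMI, 33 had Cd163l1, 27 had Trdv4, 25 had both and 35 had at least 1 of them. Of the other T cells, 2 had Cd163l1 and 0 had Trdv4. Tcrg-V6, a gamma variable segment, was found in 8 Trdc cells and 0 Trac cells. These genes lie on 3 chromosomes of mm10, Trdc at chr14:54142851-54148868, Tcrg-C1 at chr13:19214103-19217024 and Cd163l1 at chr7:140218267-140231145. Cd163l1 and Tcrg-V6 were named after their values were seen, and since Trdc and Trac set the groups no test was made.

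Other genes separated the same cells by degree. Pdcd1, the inhibitory receptor PD-1, was found in 27 of 39 Trdc cells and 20 of 59 Trac cells, at 818 and 153 CPM. Cd247, the zeta chain of the receptor complex, was found in 33 and 25 cells, at 397 and 104 CPM, and Blk, a Src-family kinase, in 20 and 17. The co-stimulatory receptor gene Icos went the other way, in 13 Trdc and 46 Trac cells, at 165 and 482 CPM. So did the T cell surface genes Cd5, in 1 and 17 cells, and Cd2, in 5 and 34. Smad3+/+ replicate 5 at 18 weeks gave 4 of the 39 Trdc and 13 of the 59 Trac cells. Its T cells included 8 with Cd5 and 15 with Cd2. After each cell was thinned to 2000 UMIs, which removes the difference in depth, Cd163l1 was found in 66.7% of Trdc and 1.69% of Trac cells, Pdcd1 in 59.0% and 18.6%, and Icos in 25.6% and 57.6%. Cd5 was found in 2.56% and 10.2% and Cd2 in 7.69% and 25.4%. Cxcr6, a chemokine receptor gene of resident T cells, was found in 53.8% and 47.5%, and Il7r was found in 87.2% and 71.2%. After the same thinning, the beta-chain gene Trbc2 was found in 71.8% of Trdc and 89.8% of Trac cells. Trbc1 was found in 51.3% and 39.0%, the higher share being in Trdc cells.

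**Figure D3:**
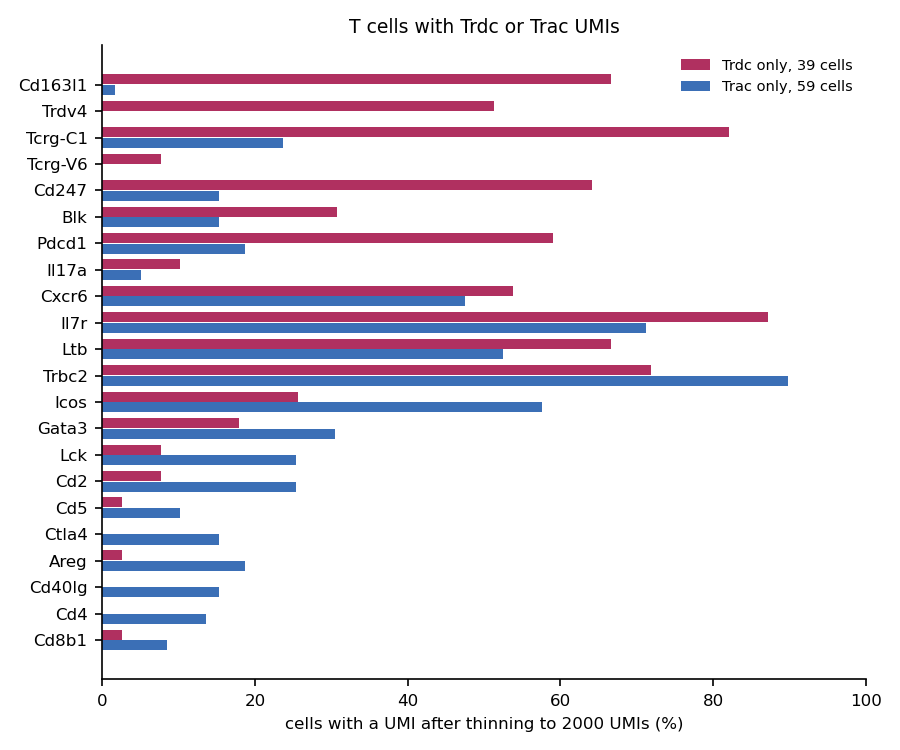
Share of the 39 Trdc cells and the 59 Trac cells with a UMI of each gene after thinning every cell to 2000 UMIs (x axis, percent), 1 pair of bars per gene. The bars of Cd163l1, Trdv4, Tcrg-C1, Cd247 and Pdcd1 are longer in Trdc cells, those of Icos, Gata3, Lck, Cd2 and Areg in Trac cells, and that of Cxcr6 differs less, at 53.8% and 47.5%.

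Cytokine transcripts sat in few cells. Il17a, the cytokine interleukin 17A, had 77 UMIs in 16 T cells of 9 libraries, 7 of them Trdc and 4 Trac cells, with at most 19 UMIs in 1 cell. Together Il17a and Il17f marked 19 T cells. Areg, the growth factor amphiregulin, had 572 UMIs in 13 T cells, of which 11 were Trac cells. Smad3+/+ replicate 5 at 18 weeks held 527 of these UMIs and 9 of these cells, Smad3SmKO replicate 6 held 42 UMIs, and 2 other libraries held 1 and 2. The highest Areg cell had 219 UMIs. In Dcn cells Areg was found in 1.45%. All 6 T cells with Il1rl1, the interleukin 33 receptor, came from 1 library, and 5 of them were Areg cells. Ifng, interferon gamma, was found in 5 T cells.

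Lineage and homing genes were sparse. Cd4 was found in 14 T cells of 4 libraries, 9 of them in Smad3+/+ replicate 5 at 18 weeks, and 13 were Trac cells. Cd8a or Cd8b1 was found in 20, and 2 of these held Cd4 as well. Foxp3, the factor of regulatory T cells, was found in 4 cells of 2 libraries and Ctla4 in 26. Ccr7, which guides naive cells to lymph nodes, was found in 6 cells, while Cxcr6 was found in 84. Of the cytotoxic genes, Nkg7 was found in 21 cells, Gzmb in 7, Gzma in 2, Prf1 in 2 and Ccl5 in 1. Dntt, which adds bases to receptor joints in developing lymphocytes, was found in 7 T cells of 4 libraries, and 6 of these held Cd8a or Cd8b1. Dcn cells held Cd4 in 0.214% and Cd8b1 in 0.0856%. At a median of 4436 UMIs a cell without a UMI of a low gene such as Cd4 cannot be taken to lack it.

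There were 5 T cells with many transcripts of another cell type. In Smad3SmKO replicate 2 at 10 weeks, 1 T cell had 44.9% of its UMIs in the 6 listed neutrophil genes and 2 Cd3 UMIs, and 1 in Smad3+/+ replicate 1 at 18 weeks had 12.0% and 2 Cd3 UMIs. In Smad3SmKO replicate 1 at 10 weeks, 1 T cell had 2.49% of its UMIs in the listed smooth muscle genes, 34 UMIs of Rgs5 and 10 of Cd3. In Smad3SmKO replicate 6 at 18 weeks, 1 T cell of 15286 UMIs had 2 Cd3 UMIs beside 74 of Sparcl1, 82 of Igfbp7, 12 of Pecam1 and 18 of Egfl7, the last 2 being endothelial genes. In Smad3+/+ replicate 5 at 18 weeks, 1 T cell of 5094 UMIs had 22.0% of them in immunoglobulin genes, with 643 of Igkc and 476 of Ighg1, beside 8 Cd3 UMIs. The highest share of the listed fibroblast genes in any T cell was 0.381%, and of the macrophage genes 0.509%.

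The B class held cells of 2 kinds, separated by how much of their RNA encoded immunoglobulin. In 36 cells, immunoglobulin genes took 24.9% to 81.0% of the UMIs, with a median of 69.2%. In the other 20 they took 0.269% to 2.64%. No B cell lay between 5% and 15%, so a bound of 10%, set after the values were seen, fell in an empty range. The immunoglobulin-rich cells were deep, with a median of 29492 UMIs against 3853. They came from 4 libraries, 28 from Smad3+/+ replicate 5 at 18 weeks, 3 from Smad3+/+ replicate 3, 4 from Smad3SmKO replicate 6 and 1 from Smad3SmKO replicate 7, and none from the 10-week libraries.

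**Figure D4:**
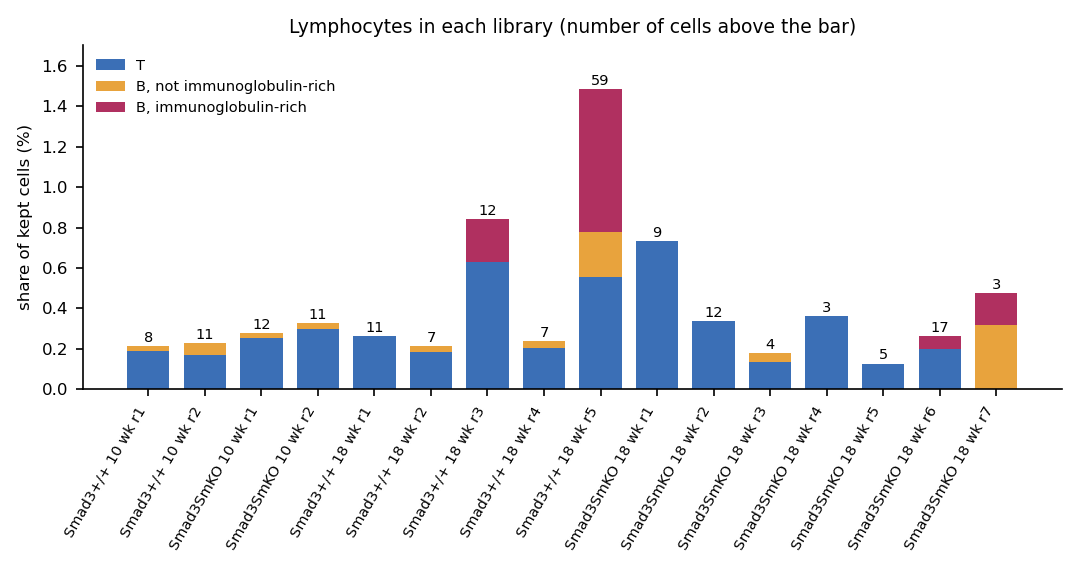
Share of kept cells (y axis, percent) that were T cells, immunoglobulin-rich B cells or other B cells in each of the 16 libraries (x axis, genotype, weeks after deletion and replicate), with the number of lymphocytes above each bar. Smad3+/+ replicate 5 at 18 weeks stands highest at 1.48%, with immunoglobulin-rich cells as its largest segment, followed by Smad3+/+ replicate 3 at 0.842%.

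The immunoglobulin-rich cells carried plasma cell genes, and the other B cells all carried the class II gene H2-Aa. Jchain, the chain that links IgM and IgA units, Mzb1, a chaperone of antibody assembly, and Xbp1, a factor of the secretory programme, were each found in all 36. Sdc1 (CD138) was found in 33 and Tnfrsf17, a survival receptor of plasma cells, in 22. Pax5, Cd22 and Ighd were found in 0. In the other 20 cells Pax5 was found in 8, H2-Aa in 20, against 18 of the 36, and Mzb1 in 18, while Sdc1 and Tnfrsf17 were found in 0. Of these genes Xbp1 and Sdc1 were also common in Dcn cells, in 66.5% and 21.0%. At the level of summed counts, Jchain stood at 36609 and 227 CPM, and Xbp1 at 1144 and 48.1 in the immunoglobulin-rich and other cells. Summed levels of the other 20 lean on 1 cell of Smad3+/+ replicate 5 at 18 weeks, which held 48724 of their 145437 UMIs. Of the other 20, 14 held Ighm and 3 of those Ighd, and the 3 Ighd cells were in Smad3SmKO replicates 3 and 7 at 18 weeks. In Smad3+/+ replicate 5, 6 of the 9 had more Ighg1 than Ighm UMIs, and 3 of the 9 had over 10% mitochondrial UMIs, between 14.2% and 18.0%. Ighg1 was also found in 21.6% of the Dcn cells of that library, so its UMIs in these B cells may be free RNA, which was not tested. Cycling genes (Mki67, Top2a or Ube2c) were found in 12 of the 20. Without barcodes held with more UMIs elsewhere, 16 other B cells remained, with Pax5 in 8, H2-Aa in 16, Ighm in 11, Ighd in 3 and a cycling gene in 8. The 36 immunoglobulin-rich cells all remained.

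Nearly every immunoglobulin-rich cell used 1 heavy-chain gene. The genes lie side by side on chromosome 12 of mm10, from Ighm at chr12:113418558-113422730 to Igha at chr12:113254830-113260236, and a cell that switches class moves from the first to another. Ighm led in 11 cells, Ighg1 in 11, Ighg2c in 6, Igha in 5, Ighg2b in 2 and Ighe in 1. The leading gene held a median of 99.99% of a cell's heavy-chain constant UMIs, and over 95% in 30 of 36 cells, with a median of 4447 such UMIs behind each value. The 6 cells under 95% were the Ighg2c cells, at 78.4% to 86.5%, with nearly all of the rest counted to Ighg2b. These 2 genes are closely related and reads could be split between them by the counting, so this division is uncertain. The mice were also of another strain than the mm10 reference. Ighg2c is therefore the name of the mm10 gene to which the reads were counted. Which form of the gene these mice carry, and its part in this division, was not tested. All 36 cells held more Igkc, the kappa light chain, than lambda UMIs, and Igkc alone took a median of 47.0% of a cell's UMIs.

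**Figure D5:**
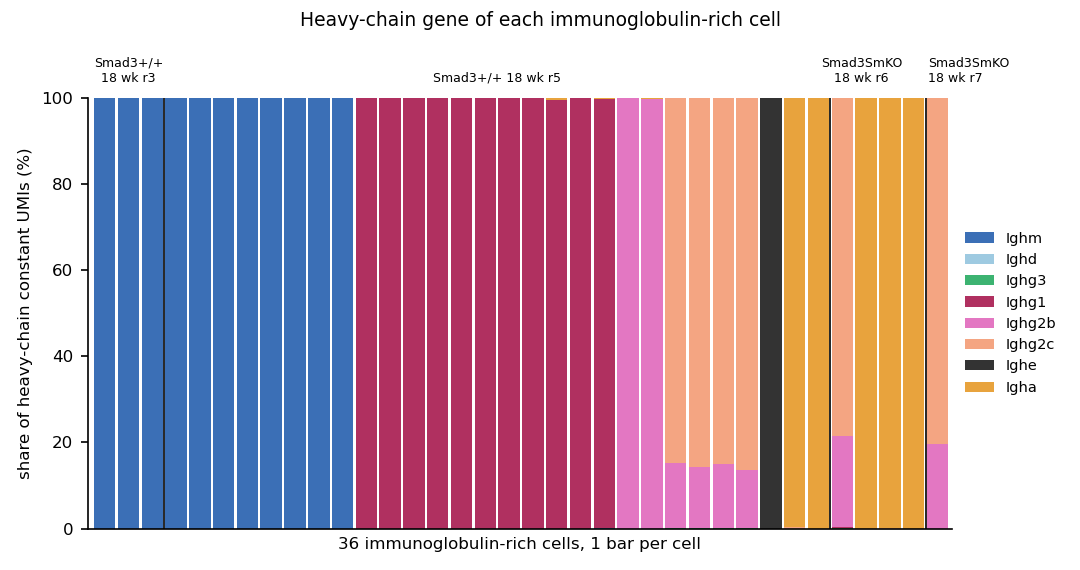
Share of each immunoglobulin-rich cell's heavy-chain constant UMIs held by each of 8 genes (y axis, percent), 1 bar per cell, grouped by library. Nearly every bar has 1 colour, and the cells of Smad3+/+ replicate 5 at 18 weeks span 6 leading genes, while the 3 of Smad3+/+ replicate 3 are all Ighm.

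The classes differed by library as well. In Smad3+/+ replicate 5 the 28 cells were led by Ighg1 in 11, Ighm in 8, Ighg2c in 4, Ighg2b in 2, Igha in 2 and Ighe in 1. The 3 cells of Smad3+/+ replicate 3 were all Ighm. The 4 cells of Smad3SmKO replicate 6 were Igha in 3 and Ighg2c in 1, and the cell of Smad3SmKO replicate 7 was Ighg2c. Cells of 1 mouse are not replicates, so these are counts of 4 mice and no test was made. Of the 28 in replicate 5, 25 had their barcode deposited in another library too, always with 508 to 2112 UMIs, between 1.27% and 4.65% of the cell's own, counting the 2 such cells of other libraries.

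Levels of endoplasmic reticulum (ER) genes, chosen after their values were seen, differed from gene to gene between the kinds of B cell. Derl3, which pulls misfolded proteins out of the ER, was found in 35 of 36 immunoglobulin-rich and 0 of 20 other B cells, at 260 and 0 CPM, against 0.762 in Dcn cells. Creld2, an ER chaperone gene, stood at 668, 61.9 and 118 CPM in the same order, and Dnajc3, a co-chaperone gene, at 370, 68.8 and 369. Hspa5, the major ER chaperone, stood at 1167, 921 and 1457 CPM, lower in the immunoglobulin-rich than in the Dcn cells. These levels are shares of all UMIs, and immunoglobulin took most of them here. The upstream sequences of these genes are shown for the ER stress response element, CCAAT and CCACG with 9 bases of any kind between them, at which ATF6 and XBP1 are known to act on ER genes. It was searched on both strands in the 250 bases before the start of 32851 RefSeq genes (GRCm38.p6), and 37 of them, 0.113%, held it. Of 17 ER genes listed after their values were seen, 16 had an entry and 6 held the element: Creld2, Derl3, Dnajc3, Hsp90b1, Hspa5 and Pdia6. The 3 below are printed in the direction of the gene, all on the plus strand, with the element in capitals and reading on the minus strand in Creld2 and Derl3. They span chr15:88819396-88819645 for Creld2, chr10:75893148-75893397 for Derl3 and chr14:118937682-118937931 for Dnajc3.
Creld2: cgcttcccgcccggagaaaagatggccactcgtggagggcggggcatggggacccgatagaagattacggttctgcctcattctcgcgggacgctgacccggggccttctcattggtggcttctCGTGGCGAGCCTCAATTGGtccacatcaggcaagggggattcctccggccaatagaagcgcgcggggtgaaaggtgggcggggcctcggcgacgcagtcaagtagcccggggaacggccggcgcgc
Derl3: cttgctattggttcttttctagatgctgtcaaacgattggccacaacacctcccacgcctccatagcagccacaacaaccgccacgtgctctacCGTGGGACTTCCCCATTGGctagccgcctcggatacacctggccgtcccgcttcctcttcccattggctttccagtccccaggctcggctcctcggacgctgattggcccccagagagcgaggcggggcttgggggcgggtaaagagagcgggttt
Dnajc3: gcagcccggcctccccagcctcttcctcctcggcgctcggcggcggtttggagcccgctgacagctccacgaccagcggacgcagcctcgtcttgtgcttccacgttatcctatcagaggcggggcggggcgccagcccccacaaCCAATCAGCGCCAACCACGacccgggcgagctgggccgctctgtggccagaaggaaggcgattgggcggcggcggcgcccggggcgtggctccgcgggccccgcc
Between the end of the element as printed and the start of the gene lay 107, 137 and 86 bases in that order. A match is a run of letters and says nothing of binding in these cells.

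Free immunoglobulin RNA was present in the libraries that held immunoglobulin-rich cells. In Dcn cells, Igkc stood at 67.2 CPM in Smad3+/+ replicate 5 at 18 weeks, in 49.9% of cells, at 28.5 in Smad3SmKO replicate 6, at 17.6 in Smad3+/+ replicate 3 and at 4.61 in Smad3SmKO replicate 7. The other 12 libraries lay between 0 and 0.523 CPM. In replicate 5, Ighg1 made up 67.2% of the heavy-chain UMIs in Dcn cells and 52.7% in the immunoglobulin-rich cells, and in Smad3SmKO replicate 6 Igha made up 57.8% and 95.2%. In Smad3+/+ replicate 3, Ighm made up 97.7% and 99.99%. Of the 22 T cells in replicate 5, 13 held an Igkc UMI, among them the cell with 22.0% immunoglobulin. Shares of T cells with an immunoglobulin UMI were therefore not read as expression.

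The shares of lymphocytes were compared between the genotypes at each time. At 10 weeks the lymphocyte share of kept cells was 0.214% and 0.230% in Smad3+/+ and 0.278% and 0.326% in Smad3SmKO mice. The groups did not overlap, while the 95% binomial intervals (Clopper-Pearson) did, at 0.115% to 0.412% for the higher Smad3+/+ and 0.144% to 0.486% for the lower Smad3SmKO library. The difference of the means was 0.0797 percentage points, with p = 0.333 in an exact two-sided permutation test, the smallest p that 2 against 2 mice can give, and an adjusted p of 0.444 over the 4 shares of that time. The T cell share of kept cells differed by 0.0981 points, again at the smallest p, and the B cell share by -0.0184 points (exact permutation p = 0.667). Without barcodes held with more UMIs elsewhere, the lymphocyte difference was 0.0522, the T cell difference 0.0865 and the B cell difference -0.0343 points. The B cell difference was -0.000396 points without Smad3+/+ replicate 2 and -0.0364 without Smad3+/+ replicate 1.

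At 18 weeks the share ran from 0.215% through a median of 0.262% to 1.48% in 5 Smad3+/+ mice, and from 0.127% through 0.338% to 0.733% in 7 Smad3SmKO mice. The groups overlapped. The means were 0.608% ± 0.555 (SD, n = 5) and 0.354% ± 0.204 (SD, n = 7), a difference of -0.254 points (exact two-sided permutation p = 0.322, adjusted p = 0.635). Without Smad3+/+ replicate 5 the difference was -0.0356 points, and without barcodes held with more UMIs elsewhere -0.243. The T cell share of kept cells was 0.367% ± 0.209 (SD, n = 5) and 0.271% ± 0.240 (SD, n = 7), a difference of -0.0963 points (exact permutation p = 0.476). It was 0.0332 points among the 30 min libraries, -0.270 among the 60 min libraries, 0.0191 as the mean of the within-batch differences, and -0.0915 without barcodes held with more UMIs elsewhere.

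The B cell share at 18 weeks rested on few mice. It was 0 in 1 Smad3+/+ mouse and 0.0307%, 0.0343%, 0.211% and 0.930% in the others, and 0 in 4 Smad3SmKO mice and 0.0449%, 0.0616% and 0.475% in the others. A count of 0 in the 1227 to 4204 cells of 4 of these libraries allowed a share of up to 0.244% to 0.0714%, and in the 826 cells of Smad3SmKO replicate 4 of up to 0.363%. The difference of the means was -0.158 points (exact two-sided permutation p = 0.423), 0.0142 without Smad3+/+ replicate 5 and -0.151 without barcodes held with more UMIs elsewhere. Intervals and limits cover counting error only. The T cell share of lymphocytes was 76.7% ± 23.8 (SD, n = 5) and 78.8% ± 36.6 (SD, n = 7), with exact permutation p = 0.931. The difference of 2.04 points turned to -7.83 without Smad3+/+ replicate 5 and to -1.50 without any 1 of Smad3SmKO replicates 1, 2, 4 and 5, and it was 15.2 without Smad3SmKO replicate 7. Within batches, Smad3SmKO minus Smad3+/+ in the lymphocyte share was -0.00293 points in batch 1, -0.109 in batch 2, 0.149 in batch 3 and -0.600 in batch 6. Batch 5 held Smad3SmKO mice only. Digestion time and tracer went together, so their parts cannot be told apart. Fewer cells released by digestion and fewer cells in the wall cannot be told apart either.

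Shares of T cell kinds were compared in the libraries with at least 10 T cells at 18 weeks, after thinning to 2000 UMIs. The share with a Trdc UMI was 27.3% and 22.7% in Smad3+/+ replicates 1 and 5 and 41.7% and 46.2% in Smad3SmKO replicates 2 and 6. The groups did not overlap, and 2 against 2 cannot give an exact permutation p below 0.333. With libraries of at least 5 T cells, a bound added after the data were seen, the means were 31.1% ± 11.5 (SD, n = 5) and 37.5% ± 10.5 (SD, n = 4), with exact two-sided permutation p = 0.405. The share with Cd8a or Cd8b1 was 9.09% and 22.7% against 0 in both, and with Cd4 0 and 22.7% against 0 and 15.4%. At the bound of 5 cells these gave exact permutation p = 0.524 and 0.683. None of these shares differed beyond the spread between mice by these tests.

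Smad3 itself was checked in the T cells, which the smooth muscle Cre does not target. At 10 weeks no T cell of either genotype held a Smad3 UMI, among 52216 UMIs in Smad3+/+ and 75721 in Smad3SmKO mice. Counts of 0 there allowed up to 57.5 and 39.6 CPM, above the 27.0 CPM summed over Smad3+/+ T cells at 18 weeks. At 18 weeks Smad3+/+ replicates 1 to 5 held 1, 1, 3, 0 and 5 UMIs, and of the 6 Smad3SmKO mice with T cells, replicate 6 held 1 and the others 0. As levels these were 19.7, 29.3, 48.2, 0 and 28.6 CPM against 15.2 and 5 values of 0. The groups overlapped. The means were 25.1 ± 17.5 CPM (SD, n = 5) and 2.53 ± 6.20 CPM (SD, n = 6), with p = 0.0281 in an exact two-sided permutation test added after the values were seen and not corrected. Summed over mice, 10 UMIs of 370065 and 1 of 235206 gave a ratio of 0.157, with a 95% counting interval of 0.00363 to 1.11 that included no difference. The difference gave exact permutation p = 0.0286 among the 30 min libraries, p = 1 among the 60 min libraries and p = 0.111 when permuted within batches, and leaving out single libraries gave 0.00476 to 0.0476. The counts are of 3' tags and do not tell the deleted part of the gene from the rest. In B cells Smad3 had 1 UMI in each genotype at 18 weeks, of 1015798 in Smad3+/+ and 143437 in Smad3SmKO mice. GFP had 0 UMIs in all 191 lymphocytes.

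Gene levels in T cells by genotype could be tested at 18 weeks, in Smad3+/+ replicates 1 and 5 and Smad3SmKO replicates 2 and 6. Across 979 genes, 1 passed an adjusted p of 0.05 in edgeR, 0.102% of those tested, while 37 had an unadjusted p under 0.05. It was Sparcl1, a matrix protein gene not known for T cells, with 0 and 2 UMIs in the Smad3+/+ and 0 and 75 in the Smad3SmKO libraries, a difference of 6.26 on the log2 scale (SE 0.99, edgeR adjusted p = 0.0013). Of the 75 UMIs, 74 came from the 1 cell with endothelial transcripts described above. The next genes by p, Igfbp7, Sparc, Hist1h2ap and Crem, did not pass, with edgeR adjusted p of 0.098, 0.115, 0.121 and 0.123. Igfbp7 and Sparc were high in the same cell, at 82 of 105 and 45 of 52 UMIs. Hist1h2ap, a histone gene of dividing cells, had 0 and 98 against 0 and 1 UMIs, and Crem, an immediate early repressor gene, 0 and 27 against 12 and 41.

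No gene of the fixed lists passed the test. Of the 17 genes for the receptor and its signalling 12 were tested, 0 passed in either direction, and their median difference was 0.10 on the log2 scale, beside 0.03 over all genes tested. The effector and resident list had 7 of 20 genes tested and a median of 0.36, the lineage list 3 of 17 and 0.97, and the immediate early list 11 of 14 and -0.04, with 0 past the threshold in each. The list of TGF-beta receptors, Smads and feedback genes had 2 of 12 genes tested, with a median of 0.14 and 0 past it. With 5 and 4 libraries of at least 5 T cells, edgeR called 0 of 1046 genes, 0%, with 39 at an unadjusted p under 0.05, and DESeq2 called 0 of the 979 in the smaller set of libraries, with 7 under 0.05. The edgeR count was unstable. It was 22 and 12 when Smad3SmKO replicate 1 or 2 of 10 weeks was left out. Leaving out any library of 18 weeks left 1 library in an arm. With the batch term, the spread then came from the Smad3SmKO libraries of 10 weeks alone, so those counts are not read as results. The count was 13 of 1531 genes without the T cells above 1% of smooth muscle or neutrophil genes. This also took Smad3SmKO replicate 2 of 10 weeks under 10 T cells, so that library dropped out. Leaving out that library alone gave 12 of 1574. The cell with endothelial transcripts stayed in. Without barcodes held with more UMIs elsewhere the count was 6. Both settings were added after the data were seen.

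At 10 weeks no Smad3+/+ library had 10 T cells. With at least 5, edgeR called 0 of 1046 genes, 0%, in 2 against 2 libraries, and 37 had an unadjusted p under 0.05. DESeq2 was not run on this set. The neutrophil genes S100a8 and S100a9 were among the 5 of lowest p, both at an edgeR adjusted p of 0.83, and the T cell with 44.9% neutrophil UMIs described above held 1211 and 1428 of their UMIs. B cells gave no test at either time, since Smad3+/+ replicate 5 at 18 weeks was the only library with 10 of them.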

How the data were processed

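Single-cell RNA of sorted live aortic cells was captured with 10x Genomics 3' v3 chemistry. The authors processed the reads with Cell Ranger 6 on mm10 with a GFP sequence added, per the submitters' notes and the study's methods, while the file headers name an earlier release, 4.0.0. Values in the deposited files were whole UMI counts, not normalized, from 66349 barcodes and 508775009 UMIs. Libraries totalled 12539539 to 52843031 UMIs.

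The study's own cell limits were applied, which set bounds of 600 and 6000 on detected genes, of 2000 and 50000 on UMIs and of 25% on the mitochondrial share. The lymphocyte rule followed, with pandas 2.3.3, numpy 2.4.6 and scipy 1.17.1 under Python 3.11.15. Groups, batch and digestion time came from the labels, and replicates were numbered in accession order. Levels (CPM) are UMIs of a gene scaled to 1000000 UMIs summed over the cells of a class. Leading genes were ranked after adding 10 CPM.

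Shares were compared over libraries by exact two-sided permutation tests with Benjamini-Hochberg adjustment. UMIs were summed per library over T or B cells and tested with edgeR 4.0.16 (R 4.3.3, quasi-likelihood, TMM, filterByExpr, group and batch terms, libraries of at least 10 cells of the class from both times). DESeq2 1.42.0, other filters, normalizations and cell limits, and each library left out were alternatives. The edgeR steps were tested on simulated data. Named genes were those of lists by function, the genes past the threshold or, where fewer than 5 passed, the 5 of lowest p, the leading genes of each class, and Smad3 and GFP. The members and the lists were chosen with earlier results of these data known, and genes outside the lists are said to be chosen after their values were seen. Some listed genes, and 1 share that used one of them, are not reported here. Promoters came from RefSeq (GRCm38.p6) and gene positions from GENCODE M21.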

Additional observations from a re-analysis of the deposited data

Results flagged for a closer look

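Of 12 groups of 4 to 10 libraries examined for a value far from the rest, 6 held one. The groups were overlapping quantities of the same libraries, and several values were 0. The nominal rate of about 1 in 20 groups by chance is therefore no yardstick for this count. Among the Smad3+/+ mice at 18 weeks, replicate 5 had a B cell share of 0.930%, with the next library at 0.211%. Among the Smad3SmKO mice at 18 weeks, replicate 7 had a B cell share of 0.475%, with the next at 0.0616%, and an immunoglobulin-rich share of 0.158%, from 1 cell of 631 kept. The same library had a T cell share of lymphocytes of 0%, with 0 T and 3 B cells, and the next library stood at 75.0%. Igkc in Dcn cells reached 67.2 CPM in Smad3+/+ replicate 5, with the next library at 17.6, and 28.5 CPM in Smad3SmKO replicate 6, with the next at 4.61.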

How the results depend on the processing

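No paired analysis was possible because the replicate numbers were given in accession order and pair no mice. At 18 weeks, the T cell share of lymphocytes differed by 2.04 points, and by -6.29 without limits on Dcn, Myh11 and C1q, -4.03 after thinning, -0.819 without barcodes held with more UMIs elsewhere, -2.68 in 60 min libraries and -7.83 to 15.2 with 1 library left out. The T cell share of kept cells turned to 0.0332 in 30 min libraries and 0.0191 within batches, and the B cell share ranged from -0.223 to 0.0142 with 1 library left out. The share of T cells with Cd4 turned to 4.86 at 5 cells per library and ranged from -15.0 to 7.69 with 1 library left out. Every one of these had an adjusted p above 0.05 under each setting, and the cause of the turns was not tested. The count of T cell genes called was 6 with RLE, 0 with DESeq2, 20 with no filter on low counts, 0 at 5 cells per library, 4 at 3 UMIs of the 6 genes, 0 with libraries of 18 weeks alone, 0 with no batch term, 30 in 60 min libraries, 6 without shared barcodes, 13 without T cells holding smooth muscle or neutrophil transcripts, and 10 to 27 with 1 library left out. The lowest and highest counts of that last range came from leaving out a library of 18 weeks, which left 1 library in an arm. The spread then came from libraries of 10 weeks alone, so these counts do not measure the stability of the test. The count in 60 min libraries also had 1 library in each arm at 18 weeks and is not read either. The Smad3 difference in T cells was -6.68 CPM in 60 min libraries (exact permutation p = 1) and -24.1 CPM within batches (exact permutation p = 0.111). The limit of at least 20 cells and the 30 min libraries alone left too few libraries for the gene test, and the share of B cells with Ighd had 1 library of 10 cells. Depth limits what can be said of low genes, since T cells held a median of 4436 UMIs and most libraries under 10 T cells.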

Other observations

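Slpi, a secreted protease inhibitor gene, stood at 13534 CPM in the 36 immunoglobulin-rich cells, 358 CPM in the other B cells and 29.5 CPM in all other kept cells. Prg2, known from eosinophils and plasma cells, was found in 19 of the 36 and in 0 of the other 20 B cells, and Ly6c2 in 27 and 0. The other B cells stood higher in S100a6, at 1403 against 26.1 CPM. They also did in Ebf1, a B lineage factor, at 626 against 18.4 CPM, beside 305 CPM in Dcn cells. Of the 145437 UMIs behind the levels of the other B cells, 48724 came from 1 cell. These genes were named after their values were seen, and no test was made between classes that the immunoglobulin share had set.

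Among all deposited barcodes, 253 met the lymphocyte rule, and 2 of the 3 above the upper limits were immunoglobulin-rich cells of Smad3+/+ replicate 5 at 18 weeks. Fxyd7 and Auts2 stood at 79.3 and 61.0 CPM in Trdc cells and at 0 in Trac cells, in a description of 39 and 59 cells.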
